A study of Drosophila melanogaster with 2 samples.

Results

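Of the 30000 regions in the list called on both replicates together (the pooled list), 4582 (15.3%, 95% Wilson interval 14.9 to 15.7%) had their summit in a coding exon or a 3′ untranslated region (3′UTR) of a protein-coding gene, over 500 bp from every start of a protein-coding transcript. Coding exons held 3643 of them and 3′UTRs held 939, and a summit in both kinds of sequence was counted as 3′UTR. Placement used the summit, the base of highest enrichment in a region, and annotation alone, without the signal. The lists came from chromatin immunoprecipitation and sequencing (ChIP-seq) on embryos of a transgenic Drosophila melanogaster line, CG12236-GFP, which carries CG12236 joined at its C-terminus to eGFP. Chromatin from mixed-sex whole embryos aged 0 to 24 h was sonicated to 200 to 800 bp and precipitated with an antibody against GFP. There was 1 group with biological replicates 1 and 3, both from the same line, so no condition can be compared. Whole embryos mix all cell types and a wide span of stages, and regions bound in few cells cannot be told apart from regions bound weakly in many. The read depth behind each list is unknown. Column 7 of the lists, the authors' signal value per region, gave the ranks, with rank 1 the strongest. Regions of 1 list are not replicates, so differences between classes are given as shares with counting intervals and were not tested.

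CG12236 belongs to the family of Drosophila proteins with a BTB domain, which lets proteins pair or assemble, and C2H2 zinc fingers, which contact DNA. Factors of this kind are known mainly from promoters, enhancers and insulators. Coding exons encode the protein, while 3′UTRs follow the stop codon and carry the signals for cleavage, polyadenylation and control of the mRNA. Regions were read against the list that passed the authors' irreproducible discovery rate (IDR) step, which weighs the ranks of regions in the replicates against each other. The resulting list is the strongest 8.09% of the pooled list by signal, so reaching it is a matter of pooled rank, and 25 exonic regions reached it, 7 in coding exons and 18 in 3′UTRs.

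Short sequences from the IDR regions show what lies under the strongest exonic summits. The letters AGNTGGCGC, where N is any base, resemble the core of the site known for the insulator protein CTCF. They were looked for on either strand within 100 bp of each summit, and were chosen after the sequences of the strongest coding exon regions had been seen. They lie in 4 of the 7 IDR coding exon regions and in 1 of the 18 IDR 3′UTR regions, which is why they are shown here for all of these but otp, whose 2 matches are not printed. Each run is the forward strand of the Release 6 genome (dm6), 5′ to 3′, with the match in capitals, so that GCGCC at the left of the capitals means a match on the reverse strand.
Pde1c, first match, at chr2L:11816529-11816558: gctggccgccAGGTGGCGCaattgtcccct
Pde1c, second match, at chr2L:11816558-11816587: ttaggccgcaGCGCCATCTgccggctccgc
klar, at chr3L:506256-506285: cccagacccaAGGTGGCGCtgctgtgcaga
CG10357, at chr3L:3616466-3616495: tattttactaGCGCCACCTtgtactattat
Hr4, in the 3′UTR, at chrX:2006000-2006029: ttcctcagtgGCGCCACCTgtatttagaga
The matches to the reverse strand are those of CG10357, Hr4 and the second of Pde1c. The match starts 60 bp to the right of the summit in klar and 56 bp to its left in CG10357.

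The word CACTGTGC was taken over from an earlier look at the strongest regions of these same data and is therefore no independent finding. It is shown because it lies in 4 of the 18 IDR 3′UTR regions, those of CG7872, stas, Tctp and by, and in none of the 7 in coding exons. Capitals again mark the match on the dm6 forward strand, where GCACAGTG is the reverse complement of the word.
CG7872, first match, at chrX:15579702-15579731: ggtacgcgtcgGCACAGTGtccactggctg
CG7872, second match, at chrX:15579870-15579899: tactggttgttCACTGTGCctggtttgcac
stas, at chrX:17625070-17625099: attactcatacGCACAGTGaagaaccagtt
Tctp, at chr3R:11211761-11211790: gtgagagatgcGCACAGTGgacactcgtta
by, at chr3R:9528699-9528728: tccacttgtccCACTGTGCatttagtcaat
In Tctp the match starts 8 bp to the left of the summit, and in by it starts 21 bp to the right of it.

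In the summits of bif and l(3)mbn the exon itself is only just reached. The edges of these exons are shown because they set how these regions were placed, and they were picked after the values had been seen. Capitals mark exon bases and small letters the neighbouring intron, on the dm6 forward strand.
bif, at chrX:11681703-11681732: ttttttttctaacagATTTCACAGAACCGG
l(3)mbn, at chr3L:6124792-6124821: cctcttatcacttacAGGGTACATTTCCGG
The summit of bif lay 31 bp inside its coding exon and that of l(3)mbn 14 bp inside. Both regions are 424 bp wide, so each also covers intron sequence. Among all 4582 exonic regions, 1158 (25.3%) had their summit within 100 bp of an exon edge.

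The strongest of the coding exon regions lay in otp, which encodes a homeodomain transcription factor of the nervous system and hindgut. At chr2R:20884457-20884718 its pooled signal was 343, at rank 76 of the 30000. Its signal was 127 at rank 74 in replicate 1 and 216 at rank 79 in replicate 3. Signals of the 2 replicate lists are on different levels, so ranks within each list are the fairer comparison, and in both lists otp stood among the strongest regions. Its 201 bp window held 2 matches to AGNTGGCGC. All 9 annotated transcripts that span the summit have it in an exon, and the nearest start of a coding transcript, of Cib2, was 4658 bp away.

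Pde1c encodes a phosphodiesterase that calcium and calmodulin activate. Its coding exon region at chr2L:11816451-11816730 ranked 104 in the pooled list with a signal of 309. It reached a signal of 126 at rank 75 in replicate 1 and 184 at rank 131 in replicate 3. Like otp it was high in both lists, and it was rich in G and C, at 64.2% of the 201 bases around the summit, the highest of the 25. The regions of otp and Pde1c were also narrow, 262 and 280 bp, where 424 bp is the median of the pooled list. The 3′UTR region of Cals, at 211 bp, was narrower still. No other exonic region was below the usual width, against 488 regions of the whole pooled list.

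The other 5 IDR coding exon regions were much weaker and lay in klar, CG10357, bif, l(3)mbn and scrib. klar encodes a protein of the nuclear envelope that takes part in moving nuclei and lipid droplets. Its region at chr3L:505994-506417 stood at pooled rank 1047. It had a signal of 24.1 at rank 3708 in replicate 1 and 90.8 at rank 673 in replicate 3, so replicate 3 ranked it better. CG10357, at rank 1411, was more even, with ranks of 1237 in replicate 1 and 1668 in replicate 3. bif encodes a cytoskeletal protein of photoreceptors and ranked 1325 in replicate 1 and 2125 in replicate 3. l(3)mbn, named for a blood cell tumour in mutants, ranked 857 in replicate 1 and 2588 in replicate 3. scrib, a scaffold of apical-basal cell polarity, came last of the 7 at pooled rank 2329, with ranks of 1836 in replicate 1 and 3470 in replicate 3. All 7 had their summit in an exon of every annotated coding transcript that spans it.

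The next coding exon regions fell below the IDR list, at rank 2475 in Ubr1, 2491 in CenG1A and 3424 in Tudor-SN. Ubr1, an E3 ubiquitin ligase of the N-end rule pathway, had a signal of 69.9, and CenG1A, a GTPase-activating protein for Arf, had 69.6. Tudor-SN, a nuclease of the RNA-induced silencing complex, followed at 57.5. The edge of the IDR list itself fell between the 3′UTR region of scf, with a signal of 72.0 at rank 2343, and the region of lwr, the SUMO-conjugating enzyme, with 70.2 at rank 2444. No gap in signal separates the exonic regions inside the list from those outside it.

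Among 3′UTR regions the strongest lay in Cals, which encodes calsyntenin, a transmembrane protein of synapses. At chr4:1113230-1113440 its pooled signal was 188 at rank 361, with a signal of 64.4 at rank 444 in replicate 1 and 123 at rank 347 in replicate 3. It was followed by pros, a homeodomain factor that sets the fate of neural progeny, at chr3R:11392791-11393214. The pros region had a pooled signal of 147, with 52.0 at rank 717 in replicate 1 and 91.7 at rank 660 in replicate 3. Both were ranked alike by the 2 replicates. The summits lay 467 bp from the annotated transcript end in Cals and 193 bp from it in pros.

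CG7872, at pooled rank 667, ranked 678 in replicate 1 and 680 in replicate 3. Hr4, an orphan nuclear receptor of the ecdysone response, ranked 531 in replicate 1 and 1096 in replicate 3. stas ranked 865 in replicate 1 and 971 in replicate 3. These 3 regions lie on X, and the ranks of CG7872 and stas differed little between the replicates. REG, an activator of the proteasome, ranked 1573 in replicate 1 and 1496 in replicate 3. Ppa, an F-box protein, had a signal of 51.5 at rank 731 in replicate 1 and 54.0 at rank 1742 in replicate 3. Inx2, an innexin of gap junctions, ranked 1363 in replicate 1 and 1730 in replicate 3.

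For 4 of the 18 the replicates were far apart. Tctp, a conserved regulator of growth, had a signal of 16.2 at rank 8738 in replicate 1 and 79.9 at rank 860 in replicate 3. by, the Drosophila tensin that links integrins to actin, had a signal of 17.0 at rank 7864 in replicate 1 and 54.9 at rank 1691 in replicate 3. TAF1B, a factor for RNA polymerase I, ranked 5953 in replicate 1 and 1037 in replicate 3. CG9837 went the other way, with a signal of 43.8 at rank 1067 in replicate 1 and 25.6 at rank 6339 in replicate 3. These are the only IDR exonic regions ranked past 5000 in either list, 3 of them in replicate 1 and 1 in replicate 3.

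The remaining 3′UTR regions of the IDR list lay in CG14505, CG33307, CG5895, CG9166, scf and the shared end of CG13739 and CG13954, which both carry the summit in a 3′UTR. CG14505 ranked 1932 in replicate 1 and 757 in replicate 3, and its gene lies within that of sbb, so the summit is exonic for 2 of the 7 transcripts over it. The summit in CG33307 lies within CenG1A and that in CG9166 within Ptp61F, again as a gene inside another gene. Together with stas and Inx2, where it is intronic in some of the gene's own transcripts, 5 of the 25 were not exonic in every spanning transcript. In all exonic regions 4061 of 4582 (88.6%) were exonic in every spanning transcript.

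**Figure D1:**
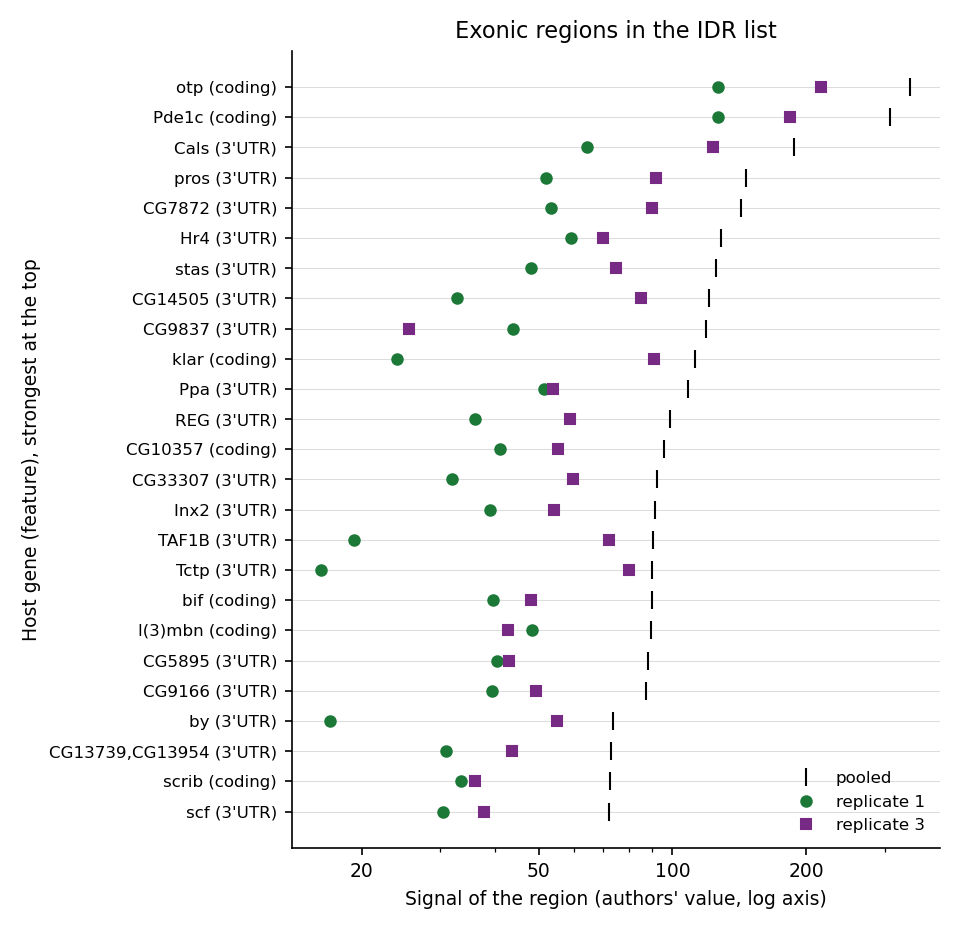
Signal (authors' value, log axis) of the 25 exonic regions in the IDR list, for the pooled list (bars), replicate 1 (circles) and replicate 3 (squares), with the strongest region at the top. otp and Pde1c stand apart at 343 and 309 in the pooled list. In Tctp, TAF1B, klar and by the replicate 1 value lies far below that of replicate 3. Signals of the replicate lists are on different levels, and 23 of the 25 regions had the larger signal in replicate 3. CG9837 and l(3)mbn had the larger signal in replicate 1.

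All 25 had a summit within 200 bp in both replicate lists, at a median distance of 19 bp in replicate 1 and 12 bp in replicate 3. The IDR list is also made from the replicates, so these matches are not independent of it. Across the 25, ranks were better in replicate 1 for 16 regions and in replicate 3 for 9, and 15 stood, in both lists, within as many top ranks as the IDR list has regions. The 201 bases around the summit had a median GC content of 36.3%, with 53.2% in the 7 coding exon regions and 35.3% in the 18 3′UTR regions. Of the 18 in 3′UTRs, 13 (72.2%, Wilson interval 49.1 to 87.5%) lay within 500 bp of an annotated end of the host transcript, against 592 of all 939 (63.0%). Another pooled summit lay within 500 bp of 10 of the 25 (40%, 23.4 to 59.3%), against 778 of the 4557 weaker exonic regions (17.1%). In these 10 the other summit lay 200 to 242 bp away, less than their width of 424 bp. Whether both summits belong to 1 enrichment was not tested.

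Over the whole pooled list, exonic regions reached the IDR list in 25 of 4582 cases (0.546%, 0.370 to 0.804%), against 2401 of the 25418 other regions (9.45%, 9.09 to 9.81%), with 8.09% of all regions in it. The share was 0.192% (0.0931 to 0.396%) in coding exons and 1.92% (1.22 to 3.01%) in 3′UTRs. The intervals of coding exons and 3′UTRs do not overlap, and both lie below that of the other regions. In promoter regions, within 500 bp of a coding start, 1100 of 8519 were in it.

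Exonic regions were spread towards the weak end of the list. Their median rank was 19933, with a median signal of 21.7, against a median rank of 13789.5 and a median signal of 26.6 for the other regions. In coding exons the median rank was 20011 and in 3′UTRs 19471, close to each other, against 10580 for promoter, 15142.5 for intron and 15837 for intergenic regions. The middle 50% of the coding exon regions had signals from 18.9 to 25.9, a narrow band just above the lowest signal in the list, 16.9. In the 3′UTR regions this band went from 19.0 to 27.5.

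Counted in steps of 5000 ranks, exonic regions made up 1.52%, 8.44%, 16.2%, 19.9%, 22.2% and 23.3% of each step from the strongest to the weakest. Coding exons supplied 26 regions in the strongest step and 930 in the weakest. 3′UTRs supplied 50 in the strongest step and 237 in the weakest. The strongest step is therefore the only one of the 6 in which 3′UTR regions outnumber coding exon regions. The share of promoters ran in the opposite direction, from 45% of the strongest step to 18.6% of the weakest, while the share of introns moved little.

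**Figure D2:**
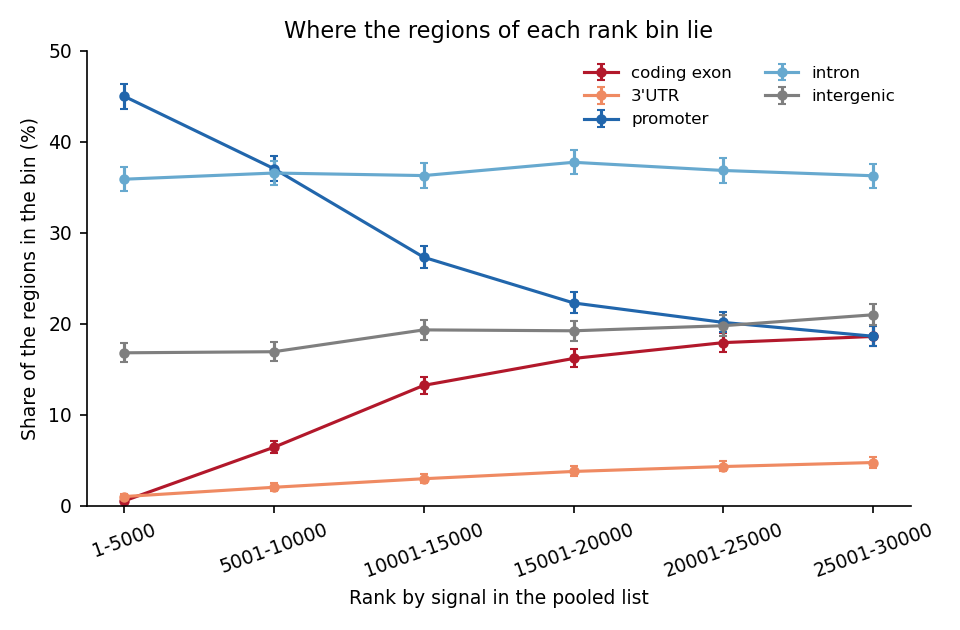
Share (%) of the regions in each step of 5000 ranks that lay in coding exons, 3′UTRs, promoters, introns and intergenic sequence, with 95% Wilson intervals as bars. Coding exons climb from 0.520% of the strongest step to 18.6% of the weakest and 3′UTRs from 1.00% to 4.74%, while promoters descend from 45% to 18.6%.

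Sequence that meets the rule was limited. Coding exon sequence over 500 bp from coding starts covered 18.0 Mb, or 13.4% of the 6 chromosome arms, and held 12.1% of the pooled regions, 202 per Mb. Qualifying 3′UTR sequence covered 6.96 Mb, or 5.20%, and held 3.13% of the regions, 135 per Mb. The density over all sequence was 224 per Mb and that of promoters 556 per Mb. Over all ranks, then, coding exons held regions at 0.903 times the density of the arms.

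The distance of 500 bp from a coding start was part of the rule. Exonic summits at 401 to 500 bp, just outside it, numbered 279, with a median rank of 17468 and a median signal of 23.4. Those just inside it, at 501 to 600 bp, numbered 312, with a median rank of 18774.5 and a median signal of 22.5. Of all exonic regions, 1358 (29.6%) lay within 501 to 1000 bp of a coding start, against 2 of the 25 in the IDR list.

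The replicate lists, placed by the same rule, held similar numbers of exonic regions but in other proportions. Replicate 1 had 4648, with 3398 in coding exons and 1250 in 3′UTRs. Replicate 3 had 4814, with 3934 in coding exons and 880 in 3′UTRs. The share in 3′UTRs was thus 4.17% of the list in replicate 1 and 2.93% in replicate 3. Among the same number of strongest regions as the IDR list holds, 29 were exonic in replicate 1 and 21 in replicate 3, as scarce as in the pooled list. The median rank of exonic regions was 19314.5 in replicate 1 and 19132.5 in replicate 3.

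Pooled exonic regions had a summit within 200 bp in replicate 1 in 51.2% of cases (49.7 to 52.6%), against 66.8% of the other regions and 64.4% of all. In replicate 3 they had one in 63.7% (62.3 to 65.0%), against 73.6% of the other regions and 72.1% of all. Both replicates had one for 1176 (25.7%, 24.4 to 27.0%), against 46.8% of the other regions and 43.6% of all. Only replicate 1 had one for 1168, only replicate 3 for 1741, and neither for 497 (10.8%), against 6.42% of the other regions. The pooled list was made from the reads of both replicates, so these matches are not independent of it. Exonic regions matched a region of that strongest set in both replicates in 16 cases (0.349%, 0.215 to 0.567%), against 6.77% of the other regions and 5.79% of all.

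Within a step of ranks the shares were closer. In the strongest step 73 of the 76 exonic regions (96.1%) were found in both replicates, against 96.8% of the other regions. The following steps gave 76.3%, 50.6%, 23.9%, 8.91% and 3.00% for exonic regions, against 76.5%, 48.3%, 24.6%, 11.1% and 5.14% for the other regions. In the strongest 5 steps the intervals overlapped, and in the weakest the exonic share was lower (2.16 to 4.14% against 4.48 to 5.88%). The part of rank in the lower agreement over the whole list was not tested. In the step before the weakest, 39.9% of exonic regions (37.0 to 42.8%) were found in replicate 1, against 46.6% of the other regions (45 to 48.1%).

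**Figure D3:**
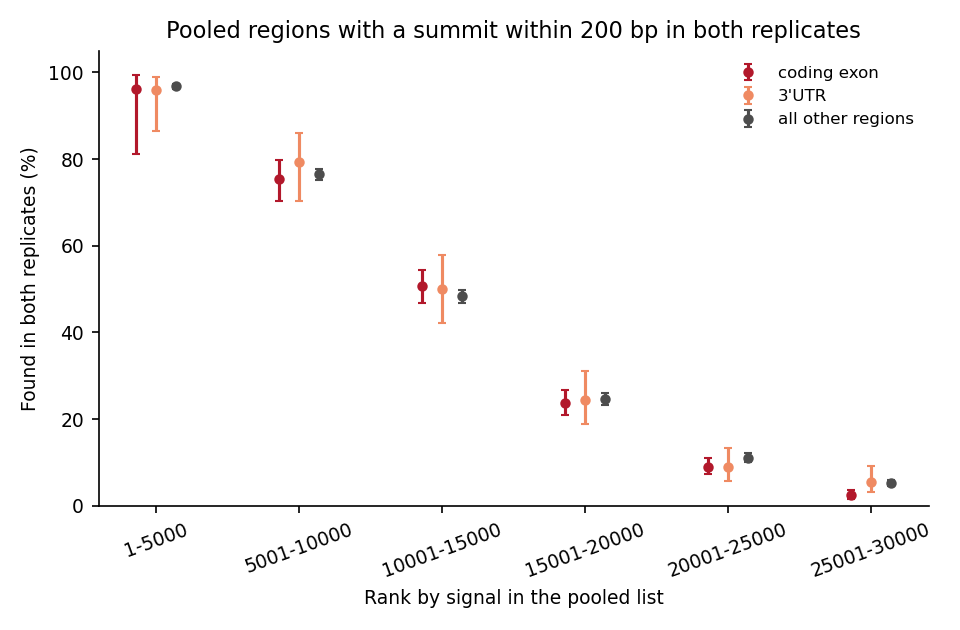
Share (%) of pooled regions with a summit within 200 bp in both replicates, by step of 5000 ranks, for coding exons, 3′UTRs and all other regions, with 95% Wilson intervals as bars. The intervals of the 3 groups overlap in the strongest 5 steps. In the weakest, coding exons stand at 2.37%, 3′UTRs at 5.49% and all other regions at 5.14%.

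Coding exons and 3′UTRs differed in which replicate found them. Coding exon regions were found in replicate 1 in 48.9% of cases (47.3 to 50.6%) and in replicate 3 in 65.1% (63.5 to 66.6%). 3′UTR regions were found in replicate 1 in 59.7% (56.6 to 62.8%) and in replicate 3 in 58.1% (55 to 61.3%). Coding exon regions were found by replicate 3 alone in 1475 cases and by replicate 1 alone in 887, while 3′UTR regions were found by replicate 3 alone in 266 and by replicate 1 alone in 281. Promoter, intron and intergenic regions all had the higher share in replicate 3, so 3′UTRs are the only class of these 5 without a higher share there.

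**Figure D4:**
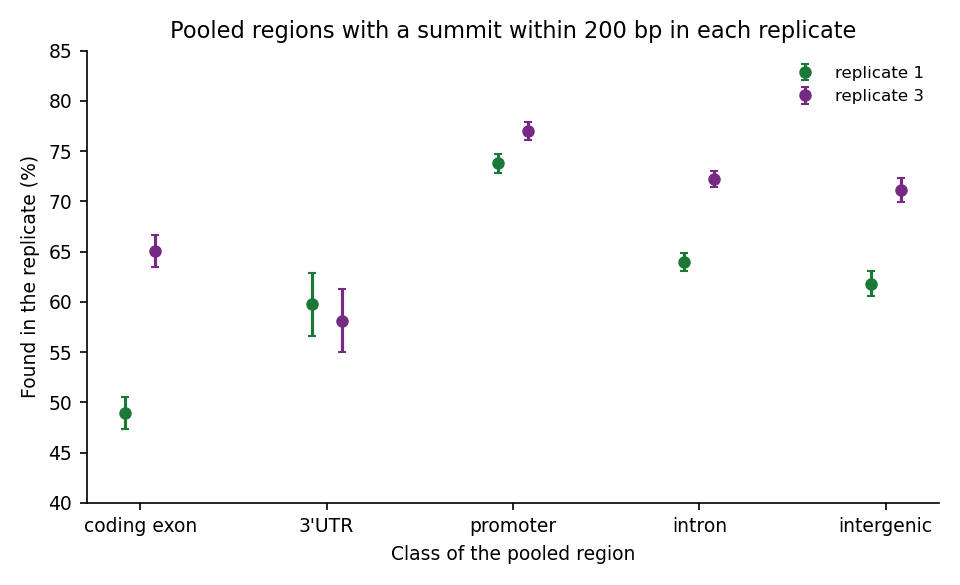
Share (%) of pooled regions of each class with a summit within 200 bp in replicate 1 and in replicate 3, with 95% Wilson intervals as bars; the vertical axis starts at 40%. The replicates are farthest apart for coding exons, at 48.9% in replicate 1 and 65.1% in replicate 3, and level for 3′UTRs, at 59.7% in replicate 1 and 58.1% in replicate 3.

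Base composition also differed between the classes. The median GC content around the summit was 56.2% in coding exons and 39.8% in 3′UTRs, against 40.8% in the other regions. The qualifying sequence itself had 53.4% GC in coding exons and 37.6% in 3′UTRs. Among 3′UTR regions under 35% GC, 61.4% were found in replicate 1 and 53.4% in replicate 3, while at 60% GC and over 50% were found in replicate 1 and 70.4% in replicate 3. At 40 to 45% GC, 3′UTR regions were found in replicate 1 in 61.8% of cases and in replicate 3 in 57.8%. Coding exon regions had the higher share in replicate 3 in that band too, with 46.2% in replicate 1 and 61.5% in replicate 3. At 60% GC and over they had 49.4% in replicate 1 and 68.7% in replicate 3. The 87 coding exon regions at 35 to 40% GC were level, with 58.6% in replicate 1 and 57.5% in replicate 3. The 19 under 35% GC had 63.2% in replicate 1 and 68.4% in replicate 3. The part of GC content in the replicate difference was not tested.

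For regions found in both replicates, signals of the 2 lists were loosely related. Spearman's rho was 0.10 over the 896 coding exon regions, 0.39 over the 280 3′UTR regions and 0.57 over the 11902 other regions. These values are across regions, which share their libraries and the control alignment, and most of the coding exon regions lie in the narrow band of low signal. They are a description of the lists.

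Over all exonic windows, AGNTGGCGC occurred within 100 bp of the summit in 80 of 4582 (1.75%, 1.41 to 2.17%), against 1.12% of the other regions and 1.22% of all pooled regions. In the IDR list it occurred in 4 of the 7 coding exon regions, otp, Pde1c, klar and CG10357, and in 1 of the 18 3′UTR regions, Hr4, against 49 of the 2401 other IDR regions (2.04%). Because these letters were chosen from the sequences of those same regions, the counts within the IDR list describe them and add no support. CACTGTGC occurred in 42 of the 4582 (0.917%, 0.679 to 1.24%), against 2.03% of the other regions and 1.86% of all. In the IDR list it occurred in 4 of the 25 exonic regions, against 4.71% of the other IDR regions.

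The E-box CAGCTG, a palindrome that many basic helix-loop-helix factors bind, occurred in 16.0% of exonic windows (15 to 17.1%), against 9.75% of the other regions and 10.7% of all. It was present in 18.1% of coding exon windows and 7.99% of 3′UTR windows. The DRE core TATCGATA, a promoter element of housekeeping genes and also a palindrome, occurred in 0.218% of exonic windows, against 2.03% of the other regions and 1.75% of all. GAGAG, the letters that GAGA factor recognises, occurred in 22.4%, against 24.3% of the other regions and 24.1% of all. A match is only a run of letters in the window, both strands were searched, and windows differ in base composition between the classes.

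The 4582 regions lay in exons of 3397 genes, 24.4% of the 13945 protein-coding genes on the 6 arms. There was 1 region in 2519 of the hosts, 2 or more in 878 and 5 or more in 35, and 75 regions lay in exons of more than 1 gene. lola, a BTB zinc finger gene with a large set of spliced isoforms, held the most, 11 regions, all in coding exons, and the best of them ranked 8013. corto, a partner of Polycomb and trithorax group proteins, held 10, of which 8 lay in its 3′UTR. Glut4EF, a transcription factor gene, held 8. It was followed by 5 genes with 7 regions each: raskol, a GTPase-activating protein for Ras, btsz, a synaptotagmin-like protein, osa, a subunit of the Brahma chromatin remodelling complex, milt, an adaptor of mitochondrial transport, and pyd, a junction scaffold. None of these 8 genes hosts a region of the IDR list. Only 26 of the 13945 genes do, so this absence says little about the 8.

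Long genes hosted more regions but not more per length. Hosts had a median of 2159 bp of qualifying exonic sequence, against 917 bp in the other genes. The share of hosts was 5.42% among genes with under 500 bp of it and 62.5% among those with 8000 bp or more. Regions per kb of that sequence went the other way above 1000 bp, from 0.225 at 1000 up to 2000 bp to 0.115 at 8000 bp or more. The 11 regions of lola lie in 23543 bp, or 0.467 per kb, and the 10 of corto in 8244 bp, or 1.21 per kb, against 0.182 per kb over all genes. Both genes were picked for holding the most regions, so their densities are tied to that choice and add no support.

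**Figure D5:**
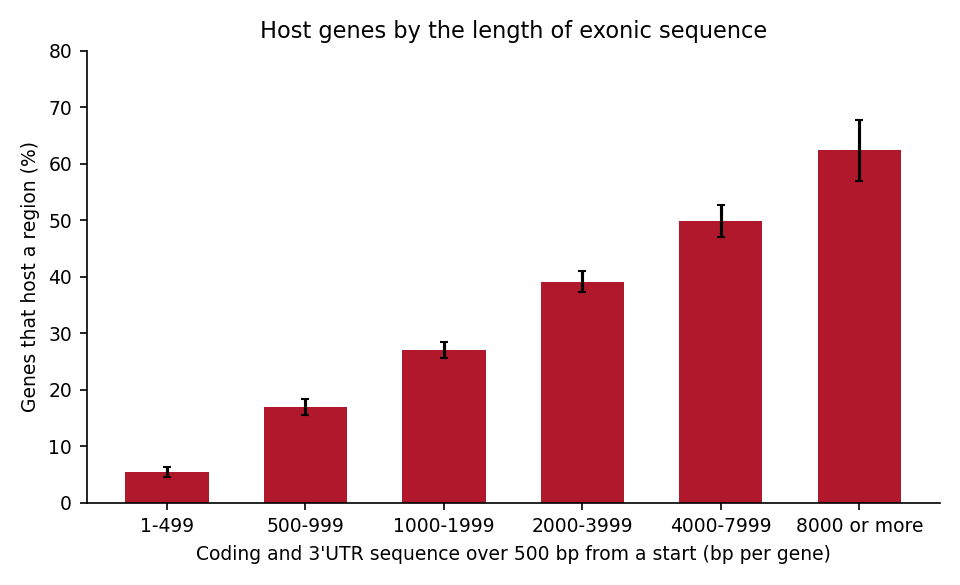
Share (%) of protein-coding genes that host at least 1 exonic region, by length of their coding and 3′UTR sequence over 500 bp from a coding start, with 95% Wilson intervals as bars. The share climbs from 5.42% under 500 bp to 62.5% at 8000 bp or more.

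Gene families differed in how many members hosted a region, beside the 24.4% of all genes. In the translation machinery, 22 of 92 cytosolic ribosomal protein genes (23.9%, 16.4 to 33.6%) and 19 of 36 translation factor genes (52.8%, 37.0 to 68.0%) were hosts. Their density was 0.476 per kb in ribosomal protein genes and 0.450 per kb in translation factor genes, against 0.182 over all genes. The median qualifying sequence was 543.5 bp in ribosomal protein genes and 1330 bp in translation factor genes, against 1170 bp over all genes. Of all genes with 500 up to 1000 bp of it, 16.9% were hosts, at 0.247 per kb. Of those with 1000 up to 2000 bp, 27.0% were hosts, at 0.225 per kb. The stronger of the 2 regions in RpL6 ranked 8327 in the pooled list, with 12761 in replicate 1 and 14384 in replicate 3. eIF3f1, a subunit of initiation factor eIF3, ranked 5310, with 4765 in replicate 1 and 12626 in replicate 3. In eIF3a the stronger of 2 regions ranked 7906 in the pooled list. RpL26 ranked 8421 and was found in replicate 3, at rank 5363, and not within 200 bp in replicate 1.

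Among enzymes of glycolysis 7 of 15 were hosts, at 0.309 per kb. Pgi, phosphoglucose isomerase, ranked 8170, and Pfk, phosphofructokinase, ranked 9964. Of the genes for actins, myosin and muscle structure 15 of 30 were hosts, at 0.108 per kb, including Act5C with 3 regions and the titin-like bt with 3. Of tubulins and cytoskeletal genes 11 of 17 were hosts, at 0.190 per kb. Among them alphaTub84B ranked 8769, and the stronger of the 2 regions in the profilin gene chic ranked 9014. Heat shock and chaperone genes had 5 of 23 hosts, among them Hsc70-3 and Hsc70-1, at 0.120 per kb. Basement membrane genes had 6 of 14, with wb, a laminin alpha chain, holding 4, and LanB2 holding 1, at 0.101 per kb. Their median qualifying sequence was 5685.5 bp. In the other lists of this paragraph it ran from 1138 bp (glycolysis) to 1873 bp (muscle structure). Of all genes with 1000 up to 2000 bp of it, 27.0% were hosts, and of those with 4000 up to 8000 bp 49.8%. The strongest regions of Act5C, alphaTub84B, Hsc70-3, Hsc70-1 and wb were found within 200 bp in replicate 3 only.

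The patterning genes came as 3 lists. Of the homeotic selectors, 6 of 8 held a region (75%, 40.9 to 92.9%), at 0.343 per kb and with a median qualifying sequence of 3416 bp. Of all genes with 2000 up to 4000 bp of it, 39.1% were hosts, at 0.191 per kb. In lab, the strongest of 3 regions ranked 4608 in the pooled list. It had a signal of 10.8 at rank 19988 in replicate 1 and 36.1 at rank 3449 in replicate 3. Antp ranked 14916 and was found within 200 bp in replicate 1 only. Of the segmentation genes, with a median of 1880 bp, 12 of 23 were hosts (52.2%, 33.0 to 70.8%), at 0.351 per kb, including ptc, the Hedgehog receptor, and hry, the hairy pair-rule repressor. Of the Notch pathway and E(spl) complex 10 of 26 were hosts (38.5%, 22.4 to 57.5%), with a median of 1485.5 bp. They held 0.182 per kb, the density of all genes. The segmentation and Notch medians both lie within 1000 to 2000 bp. Of all genes of that length, 27.0% were hosts, at 0.225 per kb. The part of length in the counts of these lists was not tested. In H, the Hairless co-repressor, the stronger of 2 regions ranked 7917. E(spl)m3-HLH ranked 9477 and was found within 200 bp in replicate 1 only.

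BTB transcription factor genes, the family of CG12236 itself, had 13 of 16 hosts (81.3%, 57.0 to 93.4%), with 38 regions at 0.300 per kb. Their median qualifying sequence was 5218 bp, against 1170 bp over all genes. Of all genes with 4000 up to 8000 bp of it, 49.8% were hosts, at 0.155 per kb. The part of length in the count of BTB hosts was not tested. In ttk, a repressor of neural fate, the strongest of 3 regions ranked 5285. It had a signal of 21.1 at rank 4901 in replicate 1 and 27.1 at rank 5660 in replicate 3. In rib, needed for tracheal and salivary gland tubes, the stronger of 2 regions ranked 6618, with 15496 in replicate 1 and 6795 in replicate 3.

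Of the neuronal genes 9 of 23 (39.1%) were hosts, but at only 0.0647 per kb over their long exons. Their median qualifying sequence was 8404 bp. Of all genes with 8000 bp or more of it, 62.5% were hosts, at 0.115 per kb. The strongest in neuronal genes were the 3′UTR regions of fne, an RNA-binding protein of neurons, at rank 4349, and of Sh, the Shaker potassium channel, at rank 6401. Large adhesion and surface protein genes had 1 host of 10, shg, the E-cadherin gene, at rank 24805, and 0.0065 per kb. The shg region was found within 200 bp in neither replicate. Yolk, fat body and haemolymph genes had 1 of 12, apolpp. Cuticle protein genes had 7 of 117, including TwdlE and Cpr50Cb, at 0.108 per kb. Chorion and vitelline membrane genes had 0 of 16. The median qualifying sequence was short, 406 bp in cuticle genes and 280 bp in chorion genes. Among all genes with 1 up to 500 bp of it, 5.42% were hosts, at 0.215 per kb. The part of length in the low counts was not tested. Histone genes had 1 of 114, the variant His2Av, but most have almost no sequence over 500 bp from a start, with a median of 28 bp, and their repeats share reads. The His2Av region and the strongest of apolpp were found within 200 bp in replicate 1 only, and that of Cpr50Cb in replicate 3 only. No gene of the 17 lists hosted an IDR region. Only 26 of all 13945 protein-coding genes did, so this absence says little about the lists. The lists overlap in places and were not tested.

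By chromosome arm, exonic regions made up 14.1 to 15.9% of the pooled regions on 2L, 2R, 3L, 3R and X, and 83 of 318 (26.1%) on chromosome 4, where 26.3% of the sequence qualifies, against 16.9 to 20.3% on the other arms. Per Mb of qualifying sequence there were 156 on X, 184 to 197 on the large autosomal arms and 234 on chromosome 4. Of the 25 IDR regions, X, 3L and 3R carried 6 each, 2R carried 4, 2L carried 2 and chromosome 4 carried 1, that of Cals.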

How the data were processed

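ChIP-seq regions came from 1 group of 2 biological replicates, per the labels. The authors deposited a list of 30000 regions for each replicate and for both pooled, and an IDR list. Column 7 of each deposited list is the authors' signal per region, computed against a control alignment, on a scale that no label states. Column 9, the deposited −log10 q value, stood at its maximum of 3.82 for 3302 pooled regions, 37 of them exonic, and was not used for ranks. Aligner and peak caller: not given in the sources used here. Read depth is unknown, so no precision from depth can be stated. The lists were checked for copies: the replicate lists share 0 intervals and 0 signal values.

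Summits on dm6 were placed with Ensembl release 115, as promoter (within 500 bp of 1 of 19252 starts of protein-coding transcripts), 3′UTR, coding exon, 5′UTR, intron or intergenic sequence, in that order. Coordinates are 1-based, and sequences are from the RefSeq copy of Release 6. Lists on dm3 were not used. Summits within 200 bp counted as matched. Motifs were searched on both strands in windows of 201 bp. Shares carry 95% Wilson intervals, which cover counting error only. No test was run, since the study has 1 group. Placing and matching were tested on simulated data, with 2100 of 2100 summits and 300 of 300 matches recovered.

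The regions and gene lists were chosen with earlier results of these data known. Named genes were the hosts of all exonic IDR regions, of the 10 strongest regions in coding exons and in 3′UTRs and of the 10 with the best worse rank over both replicates, the 5 genes with most regions (8 here, through a tie) and up to 2 hosts per list. Lists used current symbols or RefSeq synonyms, and all symbols matched. lwr was named after its value was seen. Alternatives were other distances, annotation choices, the stronger part of the list and each replicate alone. Python 3.11.15, numpy 2.4.6, pandas 2.3.3 and matplotlib 3.10.9 were used.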

Additional observations from a re-analysis of the deposited data

How the results depend on the processing

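Of 42 alternatives over the 6 quantities (number of exonic regions, their share in the IDR list, their median rank, their share found in both replicates, their share among the strongest regions of both replicates, and the number of host genes), 34 stayed within the limit set for them (1.5 times a count, or the interval or spread of a share or rank) and 8 moved past it. Keeping only the strongest 15000 regions gave 1307 exonic regions with a median rank of 11100, 61.5% of them found in both replicates, and 1152 host genes, since weak regions are left out. A limit of 200 bp from coding starts gave a median rank of 19462, and 1000 bp gave 20424.5; the cause was not tested. These limits also changed the counts, to 5513 exonic regions and 4069 host genes at 200 bp and to 3224 regions and 2371 host genes at 1000 bp, since they change the sequence that qualifies. The share among the strongest regions of both replicates ran from 0.271% (exonic in every spanning transcript) to 0.524% (summits within 500 bp shared), and the IDR share from 0.492% to 0.713%. Counting summits within 100 bp as shared gave 16.4% found in both replicates and 500 bp gave 36.0%, as a wider distance must. With each replicate's own list the number of exonic regions was 4648 to 4814 and the number of host genes 3482 to 3575. The alternatives were run for exonic regions only, so the comparison with the other regions was not tested under them. No paired analysis was possible because there is 1 group and no test. Unknown read depth, a single line, mixed stages and the lack of an analysed control list limit every value, and a share of regions found depends on where the lists stop.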
